A study of Mus musculus with 24 samples.

Results

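Lysine tRNAs carry the amino acid lysine to the ribosome, and this account covers their reads in extracellular vesicles of the mouse cauda epididymis. The members are all 32 entries of the tRNA tables whose name contains tRNA-Lys, out of 408 tRNA entries, and they were grouped by anticodon. Of these, 19 entries have the anticodon CTT and 13 have TTT. The selection used names only and no measured value.

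Vesicles of the epididymal lumen, or epididymosomes, carry RNA and protein to sperm during their maturation. The anticodon CTT pairs with the codon AAG, and TTT pairs with AAA and, by wobble, with AAG. Fragments of tRNAs are known as a major class of small RNA in epididymosomes and sperm, and cleavage in the anticodon loop is one known way in which they are made. The deposited tables count reads per tRNA gene and do not tell whole tRNAs from fragments.

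The RNA came from adult male C57BL/6J mice that were 7 to 8 weeks old when treatment began and were treated for 6 weeks through implanted osmotic pumps. The daily dose was 2.5 mg/kg of dibutyl phthalate in DBP mice and 2.5 mg/kg of di(2-ethylhexyl) phthalate in DEHP mice. Mice of the mixture group were given both phthalates, each at that dose, and control mice were given the vehicle, 50% DMSO. Phthalate diesters are plasticisers, and DEHP has longer, branched ester chains where DBP has short, straight ones. Each of the 4 groups had 6 libraries of small RNA, made from the fluid left after sperm had been pelleted. The series' text gives 6 mice per group, but no label ties a library to a mouse, so p-values measure the spread between these libraries. The design asks what each phthalate and their combination do to the RNA of these vesicles.

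Libraries 1 to 3 of every group were sequenced on lane 6 and libraries 4 to 6 on lane 7. Depth was 7944772 to 14704747 reads over 6 RNA classes. Libraries 5 and 6 of every group shared a profile that set them apart from libraries 1 to 4, as earlier results of these data had shown, and their lysine values are given apart. None of the 6 classes holds mRNA, so the labelled source was checked with miRNA markers. The epithelial miR-200 family had 4 to 16 reads per DBP library, 2 to 28 per DEHP library, 7 to 13 per mixture library and 5 to 19 per control library, with 1 of 10 entries at 0 throughout. Smooth muscle miR-143 and miR-145a had 66 to 498 reads per DBP library, 71 to 390 per DEHP library, 54 to 340 per mixture library and 132 to 360 per control library, and all 4 entries had reads. Erythrocyte miR-144 had 0 to 2 reads in any library, with 1 of 2 entries at 0 throughout, and liver miR-122 had 0 to 5. The erythrocyte marker miR-451a was not counted. Leukocyte miR-223 and miR-142a had 2 to 13. The part of these markers in the lysine values was not tested.

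A name such as tRNA-Lys-CTT-3-1 gives the amino acid, the anticodon, the isodecoder and the copy. Isodecoders share an anticodon and differ elsewhere in the tRNA, and copies of an isodecoder are gene loci that share their mature tRNA in this naming system. The 32 entries fell into 17 isodecoders, 12 of them with CTT and 5 with TTT. All but 2 entries were 73 bases long. The exceptions were CTT-13-1 with 77 bases and CTT-9-1 with 74. Sequences of the 32 entries were not used here. The mitochondrial lysine tRNA, mt-Tk, was counted outside the tRNA tables, and its sequence is shown as the form of lysine tRNA that could be matched to a reference by its transcript identifier. It lies at chrM:7700-7764 on the plus strand of GRCm38 (GENCODE M21), and the capitals mark its anticodon, bases 27 to 29 counted from the 5′ end.
mt-Tk: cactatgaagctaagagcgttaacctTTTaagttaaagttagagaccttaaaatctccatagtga

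Reads on mt-Tk were few. They came to 45 in the DBP libraries (0 to 27 per library, median 4), 102 in the DEHP libraries (2 to 58, median 7.5), 44 in the mixture libraries (0 to 13, median 6.5) and 40 in the control libraries (0 to 19, median 5.5). The groups overlapped.

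Over the 24 libraries 822787 reads lay on lysine entries, of which 70.6% carried CTT. Lys-CTT held 580968 reads, which was 0.603% of all tRNA reads and rank 21 of 51 anticodons by reads per base. Lys-TTT held 241819 reads, which was 0.251% of tRNA reads and rank 30. Arg-CCG stood first with 40% of tRNA reads. Lysine entries together took 0.569% (95% Wilson interval 0.56% to 0.577%) of tRNA reads in DBP library 5, the lowest library, and 1.2% (1.18% to 1.21%) in control library 2, the highest. Reads carried no molecular identifiers in the sources used here, so these intervals cover counting error only.

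A few isodecoders held nearly all lysine reads. CTT-3, with 7 copies, had 464390 reads or 56.4% of all lysine reads, and TTT-1, with 6 copies, had 227923 or 27.7%. CTT-2 had 110701 reads on 2 copies and TTT-2 had 11096 on 2 copies. These 4 isodecoders, with 17 entries, came to 98.9% of lysine reads. The next were CTT-13-1 with 4394 reads, TTT-5-1 with 1694, TTT-3-1 with 943 and CTT-1-1 with 427. CTT-6-1, CTT-5-1 and CTT-4-1 had 213, 200 and 198 reads. The remaining 8 entries, which were CTT-7-1, CTT-8-1, CTT-9-1, CTT-12-1, CTT-14-1 and the 3 copies of TTT-4, had 38 to 117 reads each and at most 13 in a library. They came to 608 reads, or 0.0739% of lysine reads, and did not pass the filter on low counts. Tests therefore covered 24 entries, 14 with CTT and 10 with TTT, or 11 isodecoders. In all, 7 of the 32 entries had at least 1 library at 0 reads. This concerned 14 libraries, at whose depths a count of 0 allows a level of up to 0.204 to 0.316 CPM, the usual scaling of counts by library total, before TMM adjustment.

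Copies of an isodecoder did not take equal shares of its reads, and their shares were nearly fixed from library to library. Among the 7 copies of CTT-3, where equal sharing would give 14.3% each, CTT-3-1 took 22.1% ± 0.595 (SD, n = 24) and CTT-3-2 took 8.88% ± 0.291. CTT-3-7 took 15% ± 0.206 and CTT-3-6 took 14% ± 0.379. Among the 6 copies of TTT-1, where equal sharing would give 16.7%, TTT-1-1 took 22.9% ± 0.533, TTT-1-6 took 18.1% ± 0.437, TTT-1-4 took 16.2% ± 0.342 and TTT-1-2 took 11.4% ± 0.359. Counting error alone would give an SD of 0.329 for CTT-3-1 and 0.443 for TTT-1-1. The share of CTT-3-1 was 22.1% ± 0.747 in DBP libraries, 22.1% ± 0.765 in DEHP libraries, 22% ± 0.501 in mixture libraries and 22.1% ± 0.478 in control libraries (SD, n = 6 each). The group means of TTT-1-1 ran from 22.9% to 23%. The placing of reads that match several copies remains not given in the sources used here. Therefore the reads of single copies are uncertain. How far the isodecoder and anticodon sums depend on it, through reads that match several isodecoders, was not tested.

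**Figure D1:**
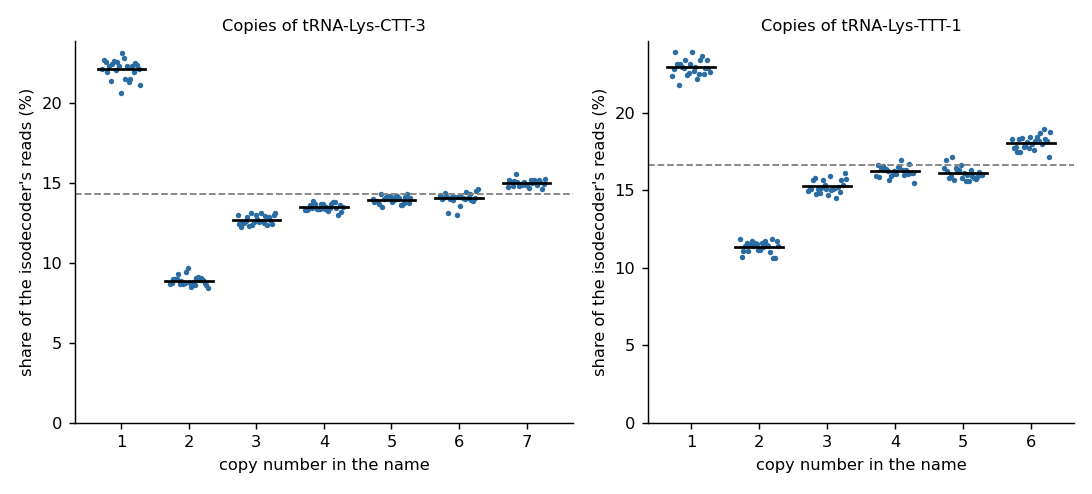
Share of an isodecoder's reads (%) taken by each copy of tRNA-Lys-CTT-3 (left) and tRNA-Lys-TTT-1 (right). Each point is 1 of 24 libraries, the bar is their mean and the dashed line is the share under equal division. The first copy of each isodecoder lies near 22% to 23% and the second lies lowest, near 8.88% and 11.4%.

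Neither lysine anticodon differed between an exposed group and the controls by more than the spread between libraries. Levels are in CPM after TMM scaling, which adjusts each library's total for its composition. Lys-CTT ran from 802 CPM over a median of 2790 to 3962 CPM in DBP libraries, and from 1105 over 1905 to 3648 in DEHP libraries. It ran from 1017 over 2567 to 4337 CPM in mixture libraries and from 832 over 2205 to 2868 CPM in control libraries. All 4 ranges overlapped, and the lowest library of each group was number 5 or 6. The means were 2446 ± 1245 in DBP, 2071 ± 851 in DEHP, 2416 ± 1257 in mixture and 2047 ± 728 CPM in control libraries (SD, n = 6 each).

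Lys-TTT ran from 477 CPM over a median of 1035 to 2257 CPM in DBP libraries, and from 700 over 838 to 1513 in DEHP libraries. It ran from 525.8 over 911 to 1126 CPM in mixture libraries and from 490 over 894 to 1214 CPM in control libraries. The ranges again overlapped, and DBP libraries 2 and 3 and DEHP library 1 stood above all controls. The means were 1135 ± 623 in DBP, 923 ± 298 in DEHP, 872 ± 249 in mixture and 852 ± 296 CPM in control libraries (SD, n = 6 each). The CTT share of lysine reads was 67.2% ± 6.92 in DBP, 68.4% ± 4.32 in DEHP, 71.2% ± 6.69 in mixture and 69.6% ± 8.18 in control libraries. Single libraries ran from 59.5% in DBP library 6 to 83.9% in control library 2, and the groups overlapped.

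**Figure D2:**
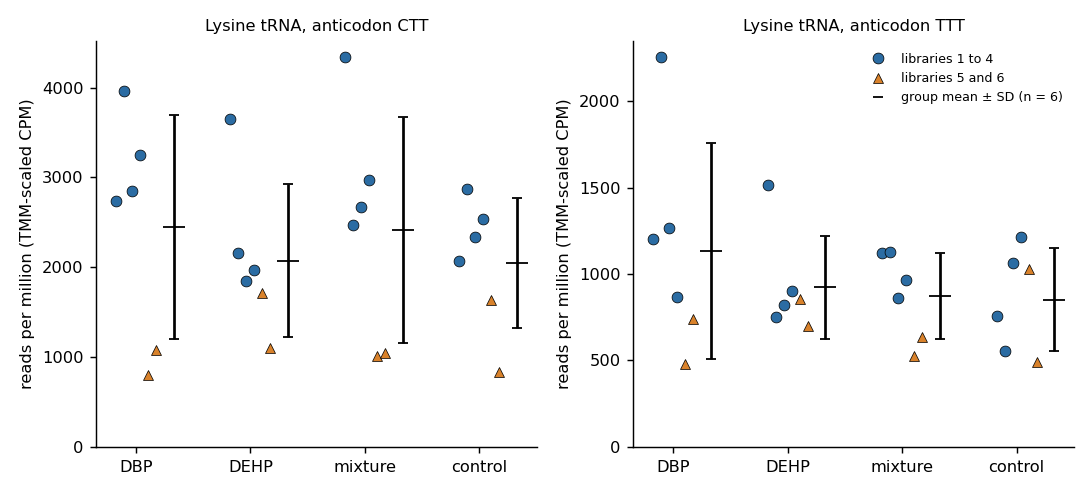
Level of lysine tRNA reads in TMM-scaled CPM for the anticodons CTT (left) and TTT (right) in DBP, DEHP, mixture and control libraries. Circles are libraries 1 to 4, triangles are libraries 5 and 6, and bars are the group mean ± SD (n = 6). The 4 groups overlap for both anticodons, and the triangles hold the lowest value of every group for CTT.

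Against controls, DBP libraries had more reads on most lysine entries, as they had on most tRNAs, but no entry passed the test. The log2 fold change was 0.21 ± 0.35 (SE, 95% interval -0.50 to 0.92) for Lys-CTT and 0.31 ± 0.30 (-0.31 to 0.92) for Lys-TTT. By edgeR's quasi-likelihood test with Benjamini-Hochberg adjustment over the 7164 features of the anticodon fit, the adjusted p was 0.987 for CTT and 0.984 for TTT. With the tRNA class scaled alone, CTT stood at -0.01 and TTT at 0.09. In the fit of single entries, 0 of 24 lysine entries and 0% of 7454 features were called at adjusted p under 0.05, by edgeR as by DESeq2 and limma voom. At an unadjusted p under 0.05, edgeR named 2 lysine entries (4.92% of all features and 17.1% of tRNA entries), DESeq2 2 and voom 1. Estimates above 0 were found for 23 of 24 lysine entries, for 88.2% of tested tRNA entries and for 48.5% of all features. The median log2 fold change was 0.29 over lysine entries, 0.32 over tRNA entries and -0.01 over all features. Since the 13 copies of CTT-3 and TTT-1 move together, the count by isodecoder, 10 of 11 above 0 (48.8% of features in that fit), holds fewer repeats.

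Under DEHP the estimates of both anticodons lay close to 0. Lys-CTT differed by -0.00 ± 0.34 (SE) on the log2 scale, with a 95% interval of -0.71 to 0.71, and Lys-TTT by 0.07 ± 0.29 (-0.53 to 0.68). Adjusted p was 0.9996 for both in edgeR. Of 24 lysine entries 0 were called at adjusted p under 0.05 (0% of 7454 features) by edgeR, DESeq2 or voom. At an unadjusted p under 0.05 the counts were 1 by edgeR (2.88% of all features), 1 by DESeq2 and 2 by voom. Estimates were above 0 for 15 of 24 lysine entries, against 79.1% of tRNA entries and 46.3% of all features. All 10 TTT entries were above 0, with a median of 0.06, and 5 of 14 CTT entries were, with a median of -0.04. Copies of an isodecoder move together, and the sign of the CTT median turned by isodecoder. There, 4 of 7 CTT isodecoders were above 0 (median 0.11) and 4 of 4 TTT isodecoders (median 0.14), against 46.5% of all features.

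The mixture showed estimates of opposite sign for the 2 anticodons, both within error. The log2 difference from controls was 0.19 ± 0.35 (SE, 95% interval -0.52 to 0.90) for Lys-CTT and -0.03 ± 0.29 (-0.63 to 0.58) for Lys-TTT, and the sign for TTT turned in several settings. EdgeR, DESeq2 and voom called 0 of 24 lysine entries at adjusted p under 0.05 (0% of 7454 features). Each of the 3 tools named 1 entry at an unadjusted p under 0.05 (2.72% of all features in edgeR). In this group 13 of 14 CTT entries and 3 of 10 TTT entries had estimates above 0, against 76.2% of tRNA entries and 45.6% of all features. By isodecoder, 6 of 7 with CTT (median 0.23) and 0 of 4 with TTT (median -0.17) were above 0, against 46.1% of all features.

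DBP and DEHP were given at the same mass dose for the same time, and this was the single pair of compounds compared. Lys-CTT was higher by 0.21 ± 0.34 and Lys-TTT by 0.23 ± 0.29 on the log2 scale in DBP libraries than in DEHP libraries (SE, n = 6 each). Neither passed edgeR's quasi-likelihood test (adjusted p = 0.9998 for both), and the 95% intervals, -0.50 to 0.92 for CTT and -0.38 to 0.84 for TTT, allow a difference in either direction. EdgeR, DESeq2 and voom called 0 of 24 lysine entries at adjusted p under 0.05 (0% of 7454 features), and 0 at an unadjusted p under 0.05 (3.54% of all features in edgeR). Estimates were above 0 for 23 of 24 lysine entries, for 72.6% of tRNA entries and for 52.2% of all features. Copies of an isodecoder move together. By isodecoder, 10 of 11 were above 0, against 66.5% of tRNA isodecoders and 52.1% of all features in that fit. The departure of the mixture from the sum of both single exposures was -0.02 ± 0.49 (-1.03 to 0.99) for CTT and -0.40 ± 0.42 (-1.27 to 0.46) for TTT on the log2 scale. The median of that quantity over the 50 tested tRNA anticodons was -0.28.

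**Figure D3:**
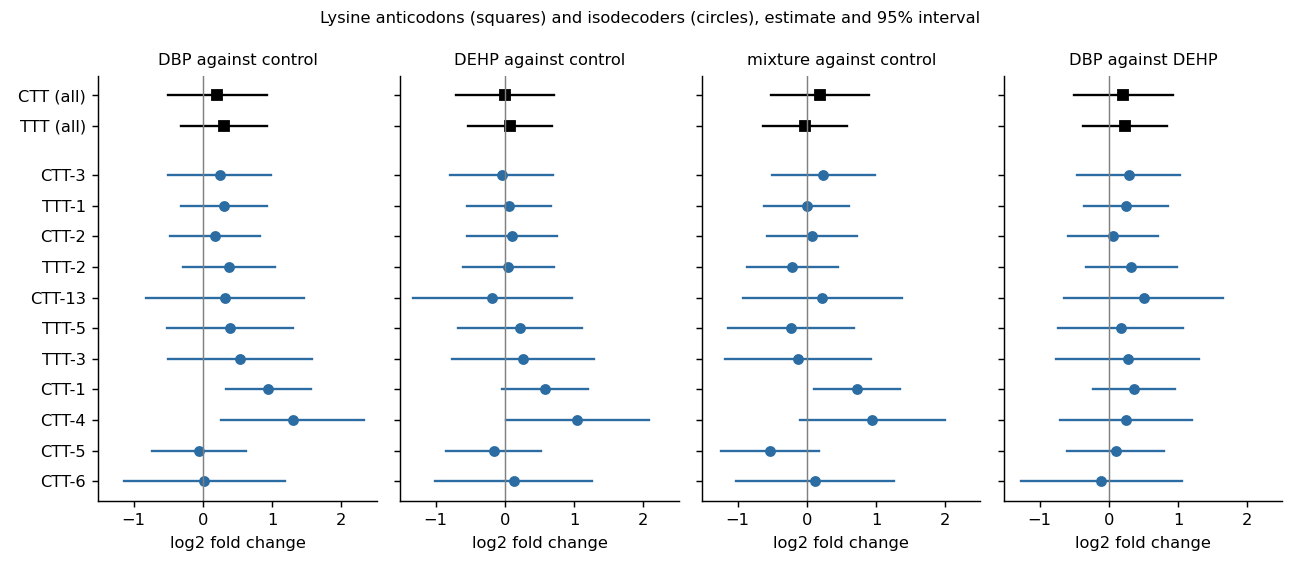
Log2 fold changes with 95% intervals from edgeR for the 2 lysine anticodons (squares) and the 11 tested isodecoders (circles, ordered by level) in DBP, DEHP and mixture libraries against control and in DBP against DEHP libraries. Intervals cross 0 except for CTT-1 and CTT-4 under DBP, CTT-4 under DEHP and CTT-1 under the mixture, and no adjusted p was under 0.05.

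In no comparison did the libraries of the groups separate without overlap for any of the 24 lysine entries. Among all features such separation occurred for 0.107% in DBP against control, 0.107% in DEHP against control, 0.0805% in mixture against control and 0.0939% in DBP against DEHP.

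The entries with the smallest p were rare ones. CTT-1-1 had 28, 19, 20, 16, 29 and 18 reads in DBP libraries 1 to 6, against 15, 17, 9, 18, 9 and 9 in control libraries. DEHP libraries had 9 to 22 reads (median 18.5) and mixture libraries 12 to 32 (median 18.5), against 9 to 18 (median 12) in control libraries. Of the DBP libraries, 4 of 6 lay above the highest control in CPM, and the groups overlapped through DBP libraries 4 and 6. The level was 2.14 ± 0.842 CPM in DBP, 1.6 ± 0.422 in DEHP, 1.8 ± 0.859 in mixture and 1.09 ± 0.443 CPM in control libraries (SD, n = 6 each).

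CTT-1-1 was the only lysine entry that met the criterion named in the labels, a fold change of at least 1.5 with p under 0.01, and it did so under DBP. Its log2 fold change was 0.94 ± 0.29 (SE, 95% interval 0.33 to 1.54), with adjusted p = 0.934 in edgeR. That criterion was met by 0.724% of all 7454 features under DBP and by 7 of 340 tRNA entries. It was met by 0 lysine entries under DEHP (0.389% of all features), under the mixture (0.416%) and in DBP against DEHP (0.376%). CTT-1-1 no longer met it when control library 5, control library 6, DBP library 1 or DBP library 5 was left out, with libraries 5 and 6 of every group left out, on lane 7 alone or with the tRNA class scaled alone. Its log2 fold change without 1 library ran from 0.80 to 1.19, and without libraries 5 and 6 it was 0.73. Under the mixture CTT-1-1 stood at 0.72 ± 0.30 (adjusted p = 0.9996 in edgeR), under DEHP at 0.58 ± 0.30, and between DBP and DEHP at 0.36 ± 0.28.

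CTT-4-1, another single-copy entry, had 15, 18, 4, 6, 8 and 10 reads in DBP libraries, 6, 7, 6, 9, 18 and 10 in DEHP libraries, and 3, 6, 2, 8, 1 and 10 in control libraries. Mixture libraries had 4 to 12 reads. All 6 libraries of each exposed group lay above the control mean of 0.399 CPM, some of them barely, and every exposed group overlapped the controls. The lowest library stood at 0.401 CPM in DBP, 0.502 in DEHP and 0.403 CPM in the mixture. The share of all features with this pattern was not counted. Its log2 fold change was 1.29 ± 0.50 (SE, 95% interval 0.26 to 2.31) under DBP, 1.04 ± 0.50 (0.01 to 2.07) under DEHP and 0.94 ± 0.51 (-0.10 to 1.98) under the mixture. Adjusted p in edgeR was 0.934 under DBP, 0.999 under DEHP and 0.9996 under the mixture. These 3 comparisons share the control libraries. At counts this low, 5 reads per control library on average, a few reads decide the estimate.

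**Figure D4:**
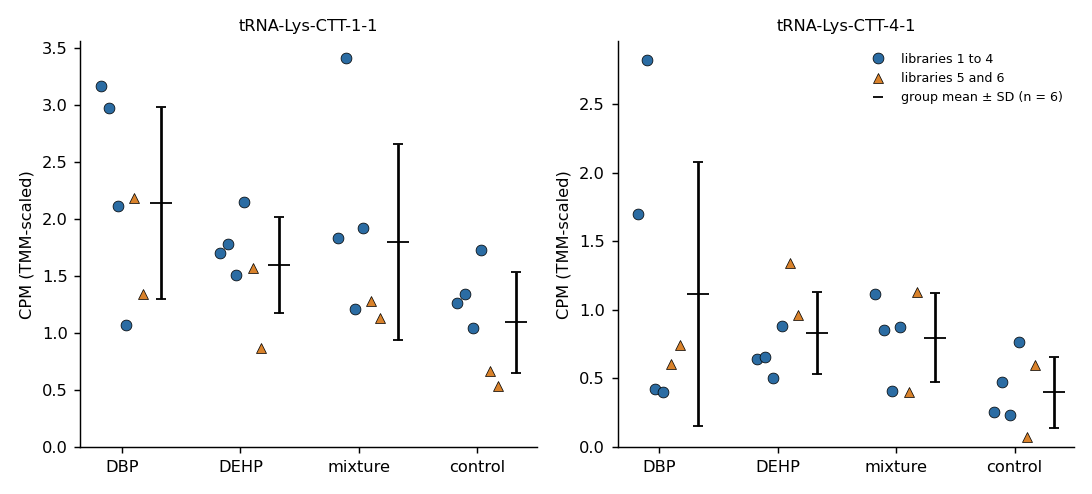
Level in TMM-scaled CPM of tRNA-Lys-CTT-1-1 (left) and tRNA-Lys-CTT-4-1 (right) in DBP, DEHP, mixture and control libraries. Circles are libraries 1 to 4, triangles are libraries 5 and 6, and bars are the group mean ± SD (n = 6). Group means are highest in DBP libraries, 2.14 and 1.11 CPM, and lowest in control libraries, 1.09 and 0.399 CPM, with overlap between all groups.

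The most read copies followed their anticodons. Under DBP the log2 fold change was 0.24 ± 0.36 for CTT-3-1, 0.22 ± 0.35 for CTT-3-7 and 0.23 ± 0.36 for CTT-3-6. It was 0.30 ± 0.29 for TTT-1-1, 0.32 ± 0.29 for TTT-1-6 and 0.29 ± 0.29 for TTT-1-4 (SE, n = 6 each). Under DEHP these 6 entries lay between -0.06 and 0.08 and under the mixture between -0.02 and 0.24. The lowest adjusted p among them was 0.959 in edgeR.

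For Lys-TTT the estimates of DBP against control had opposite signs on the 2 sequencing lanes, but the lane difference did not pass the test. On lane 6, DBP libraries 1 to 3 had 1205, 2257 and 1266 CPM against 757, 552 and 1066 CPM in control libraries, and each DBP library lay above each control. The share of all features that separate so on lane 6 was not counted. On lane 7, DBP libraries 4 to 6 had 866, 477 and 737 CPM against 1214, 1031 and 490 CPM in control libraries, and the groups overlapped. The log2 fold change was 1.00 on lane 6 and -0.39 on lane 7. The lane 7 value minus the lane 6 value was -1.39 ± 0.55 (SE), with adjusted p = 0.717 in edgeR, and 0 of 7164 features were called for it. On lane 6 alone 12 of 23 tested lysine entries had an unadjusted p under 0.05 under DBP, close to the share of all tRNA entries (169 of 340, or 49.7%) and above that of all features (11.4%). On lane 7 alone 0 of 23 had, beside 2.06% of tRNA entries and 2.47% of all features. Copies of CTT-3 and of TTT-1 move together, so these counts hold repeats, and isodecoders were not counted on single lanes. Leaving out DBP library 2 took the Lys-TTT estimate over both lanes to 0.08. For Lys-CTT under DBP the log2 fold change was 0.41 on lane 6 and 0.04 on lane 7, a difference of -0.35 ± 0.73. Under DEHP and the mixture the lane difference of Lys-TTT was -0.53 ± 0.55 for DEHP and -0.75 ± 0.55 for the mixture.

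Libraries 5 and 6 had less Lys-CTT than libraries 1 to 4 in all 4 groups. This division was known from earlier results of these data and is described without a test. Lys-CTT averaged 1153 ± 339 CPM in the 8 libraries numbered 5 or 6 and 2791 ± 714 CPM in the 16 libraries numbered 1 to 4, and all 8 lay below all 16. How many of all features separate these libraries in this way was not counted. The separation is therefore not shown to be particular to Lys-CTT. Lys-TTT averaged 682 ± 193 CPM in libraries 5 and 6 and 1077 ± 395 CPM in libraries 1 to 4, with overlap. As a share of tRNA reads, CTT was 0.435% ± 0.0717 in libraries 5 and 6 and 0.671% ± 0.176 in libraries 1 to 4, whereas TTT was 0.258% ± 0.0421 in libraries 5 and 6 and 0.25% ± 0.0526 in libraries 1 to 4. The direction for TTT thus turned with the scale, and that for CTT did not. The separation for CTT did depend on the scale. As a share of tRNA reads, 6 of the 8 libraries lay below all 16, and the 2 sets overlapped. CTT made up 62.8% ± 2.41 of lysine reads in libraries 5 and 6 and 72.3% ± 5.29 in libraries 1 to 4.

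Within CTT the isodecoders differed. CTT-13-1 had 31 to 99 reads (4.48 ± 1.91 CPM) in libraries 5 and 6 and 132 to 518 reads (23.4 ± 7.81 CPM) in libraries 1 to 4, without overlap. CTT-6-1 went the other way, with 12 to 27 reads (1.45 ± 0.392 CPM) in libraries 5 and 6 and 0 to 8 reads (0.376 ± 0.216 CPM) in libraries 1 to 4, also without overlap. The share of all features that separate these libraries without overlap was not counted. Such separation is therefore not shown to be particular to lysine entries. CTT-3 lay between, with 843 ± 243 CPM in libraries 5 and 6 and 2284 ± 603 CPM in libraries 1 to 4, and CTT-2 had 280 ± 85.4 CPM in libraries 5 and 6 and 502 ± 147 CPM in libraries 1 to 4. There were 3.06 ± 0.329 reads of CTT-3 per read of CTT-2 in libraries 5 and 6, and 4.65 ± 0.848 in libraries 1 to 4. As the numbers 5 and 6 lie on lane 7 in every group, lane, library number and any other feature shared by these libraries cannot be told apart beyond library 4 of each group, which lay on lane 7 and had Lys-CTT levels of 3251 CPM in DBP, 1965 in DEHP, 2966 in mixture and 2540 CPM in control.

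**Figure D5:**
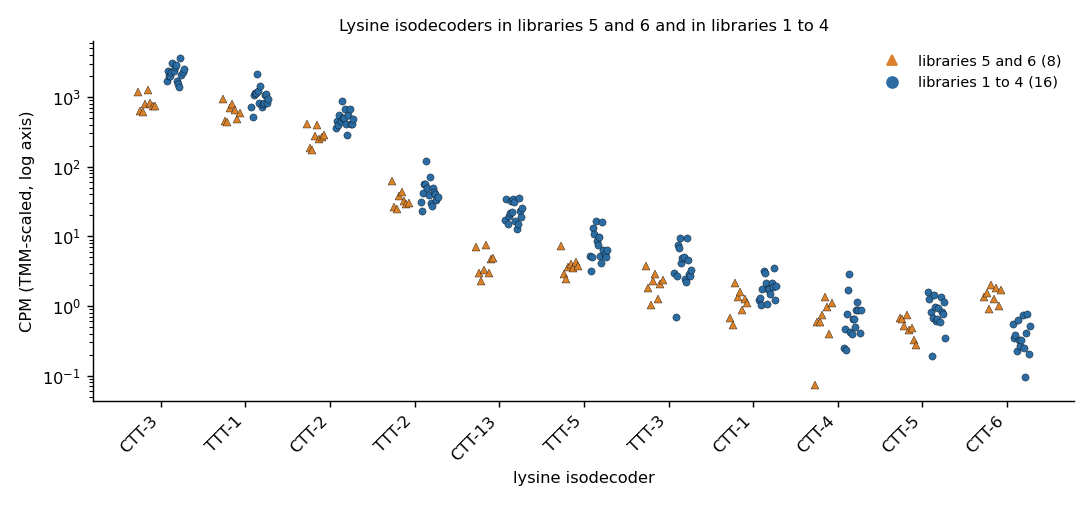
Level of the 11 tested lysine isodecoders in TMM-scaled CPM on a log axis. Triangles are the 8 libraries numbered 5 or 6 and circles the 16 libraries numbered 1 to 4, and a library of CTT-6 at 0 reads is not drawn. CTT-3 and CTT-13 lie lower without overlap in libraries 5 and 6, and CTT-6 lies higher without overlap. The share of all features that separate in this way was not counted.

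Over all 24 libraries the 2 lysine anticodons did not have each other as nearest neighbours. There, log2 CPM of Lys-CTT had its highest Spearman correlations with Ser-GCT (0.87), Pro-TGG (0.81) and Ala-CGC (0.81), and Lys-TTT came 8th of 49 anticodons with 0.74. Within libraries 1 to 4 (n = 16) the value was 0.61 for Ser-GCT, 0.53 for Pro-TGG, 0.39 for Ala-CGC and 0.48 for Lys-TTT. Ala-CGC thus fell below Lys-TTT there. Lys-TTT was nearest to Gln-TTG (0.95), Pro-TGG (0.94) and Pro-AGG (0.93), and Lys-CTT came 15th, all over 24 libraries. Within libraries 1 to 4 the value was 0.93 for Gln-TTG, 0.93 for Pro-TGG and 0.87 for Pro-AGG. Within libraries 5 and 6 (n = 8) the order differed as well. The 2 lysine anticodons correlated with each other at 0.95, above the 0.69 to 0.93 of CTT with its 3 named neighbours and the 0.62 to 0.86 of TTT with its own. These libraries share TMM scaling, lanes and the profile of libraries 5 and 6, so the correlations are given as a description.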

How the data were processed

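The tables deposited by the authors hold read counts per reference sequence, 1 table per library and RNA class. Per the submitters' processing notes, reads were trimmed with cutadapt, aligned with STAR 2.7.6a and tested with edgeR, and the labels give a search order of classes starting with miRNA and tRNA. A read that fits a miRNA is therefore not counted as tRNA. The genome build, strand and the placing of reads with several matches remain not given in the sources used here. The row without a feature held 0 reads.

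The 6 classes of the search order were joined, filtered with filterByExpr (7454 features kept, 340 of them tRNA entries), scaled by TMM (factors 0.625 to 1.31) and fitted in edgeR 4.0.16 (R 4.3.3) with terms for group and lane over all 24 libraries. All tRNA entries were also summed to isodecoders (7308 features) and anticodons (7164 features). P-values are two-sided and Benjamini-Hochberg adjusted over each whole table, with a threshold of 0.05. The biological coefficient of variation was 34.6%. DESeq2 1.42.0 and limma 3.58.1 were alternatives, beside other scalings, filters, terms, single lanes and left-out libraries. Correlations used log2 CPM with a prior count of 2.

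The members, lists and tests were chosen with earlier results of these data known. Named entries are the 3 most read of each anticodon, any that met adjusted p or the labels' criterion, and the smallest p per comparison. CTT-4-1 and CTT-1-1 are also given in comparisons where the rule did not name them, and the isodecoders of libraries 5 and 6 were chosen after their values were seen.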

Additional observations from a re-analysis of the deposited data

Results flagged for a closer look

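Among 60 sets of 6 libraries (levels of the anticodons and isodecoders, the CTT share and the ratio of CTT-3 to CTT-2 reads, in each group), 4 held a library far from the other 5, at a gap that chance gives in about 1 set of 20. Lys-TTT stood at 1513 CPM in DEHP library 1, where the other DEHP libraries had 700 to 899 CPM. In the same library TTT-1, the isodecoder that holds most TTT reads, stood at 1420 CPM, where the other DEHP libraries had 642 to 820 CPM. TTT-2 stood at 121 CPM in DBP library 2, where the other DBP libraries had 24.7 to 55.9 CPM. CTT-1 stood at 3.45 CPM in mixture library 2, where the other mixture libraries had 1.12 to 1.92 CPM. All 4 were high values from lane 6.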

How the results depend on the processing

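No lysine entry or anticodon was called at adjusted p under 0.05 under any of the alternatives run. These gave 216 values for the anticodons, 27 for each of 8 differences, and the smallest adjusted p among those tested was 0.414. Directions were less steady, since all 8 anticodon differences lie within error. Lys-CTT in DBP against control turned to -0.0075 with the tRNA class scaled alone, and in DBP against DEHP to -0.010 with voom. In DEHP against control Lys-CTT turned from about 0 to 0.064 with library totals, 0.0014 without a filter, 0.20 with voom, 0.017 without a lane term, 0.055 with a term for libraries 5 and 6, 0.0054 with otherRNA added and 0.085 on lane 6. With the replicate number as a block it stood at 0.039. Lys-TTT turned on lane 7 to -0.39 in DBP against control, -0.22 in DBP against DEHP and -0.17 in DEHP against control, and to -0.038 in DEHP against control with the tRNA class alone. In mixture against control Lys-TTT turned to 0.0039 with DESeq2 size factors and in DESeq2's own test, 0.028 with library totals, 0.036 without a filter, 0.094 with voom, 0.034 without a lane term, 0.0037 with otherRNA added and 0.41 on lane 6. Without libraries 5 and 6, an alternative chosen after seeing the data, it stood at 0.19.

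Leaving out 1 library at a time gave, for Lys-CTT, -0.076 to 0.44 in DBP against control, -0.13 to 0.22 in DEHP against control, -0.025 to 0.43 in mixture against control and -0.075 to 0.39 in DBP against DEHP. For Lys-TTT it gave 0.077 to 0.51 in DBP against control, -0.077 to 0.28 in DEHP against control, -0.15 to 0.20 in mixture against control and -0.0060 to 0.40 in DBP against DEHP. The cause of these turns was not tested. Pairing by replicate number was checked through deviations from group means: 4 of 6 pairs in DBP and control and 5 of 6 in DEHP and control and in mixture and control correlated above 0.1. As not every pair did, and no label ties the numbers to a shared animal or day, they were not taken to pair the libraries. Libraries of a number do share a lane, and those numbered 5 and 6 share a profile. The block left the count at adjusted p under 0.05 at 0 and gave 0.16 for Lys-CTT and 0.32 for Lys-TTT under DBP. Of 12 libraries, 4 correlated best with their own number in DBP and control, 6 in DEHP and control and 3 in mixture and control. In DBP and DEHP 4 of 6 pairs correlated above 0.1, and 1 of 12 libraries correlated best with its own number.

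Depth limits the 8 untested entries and CTT-1-1, CTT-4-1, CTT-5-1 and CTT-6-1, with at most 427 reads in all.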

Other observations

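Among tRNAs known for abundant 5′ fragments in sperm, Glu-CTC held 12209916 reads and ranked 2 of 51 anticodons by reads per base, His-GTG ranked 4, Val-CAC 7, Val-AAC 13 and Gly-GCC 15, all above Lys-CTT at 21. By edgeR's quasi-likelihood test 0 of their 50 tested entries were called at adjusted p under 0.05 in any comparison. Of the 10 entries of His-GTG, 9 had a higher level under DBP than in controls at an unadjusted p under 0.05, and of the 13 entries of Gly-GCC 3 had, beside 17.1% of all tRNA entries and 2.46% of all features. The anticodon sums stood at a log2 fold change of 0.84 ± 0.36 (SE) for His-GTG and 0.39 ± 0.23 for Gly-GCC under DBP, both with adjusted p = 0.963 in edgeR. Glu-CTC, Val-CAC and Val-AAC had 0 such entries under DBP. In DEHP against control (2.88% of all features) and mixture against control (2.72%), 0 of the 50 entries had an unadjusted p under 0.05. In DBP against DEHP 3 of Gly-GCC were higher at that p (2.94% of tRNA entries, 1.86% of all features). There, 1 of Val-AAC was lower (0.588% of tRNA entries, 1.68% of all features).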
